A study of Mus musculus with 6 samples.

Results

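Myc, Jun and Ccnd1 were examined for N6-methyladenosine (m6A) at 240 of the 567667 rows of the deposited table. Rows were assigned to a gene by position alone, in 3 windows given in the genome build GRCm39. The rule itself uses no measured value. The window of Myc was chr15:61857191-61862223 and held 54 rows, that of Jun was chr4:94937272-94940459 with 76 rows, and that of Ccnd1 was chr7:144483669-144493568 with 110 rows. Each gene is described by itself, and positions are counted from 1.

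Direct RNA sequencing on nanopores, which reads the RNA strand itself, was used to measure m6A in 6 samples of cultured mouse hepatocellular carcinoma initiating cells (HCICs), the liver cells from which carcinoma is thought to arise. HCICs were isolated from male control (CTL) and double knock-in (DKI) mice injected as pups with the liver carcinogen diethylnitrosamine (DEN), and the cells were taken months later. DKI mice carry mutant MDM2 and mutant MDMX, which impair the activation of p53, while p53 itself is wild type. The 3 MTH-D samples were HCICs in which Mthfd1l, a mitochondrial enzyme that makes formate for one-carbon metabolism, was knocked out with Cas9 and sgRNA delivered by lentivirus. The 3 MTH-WT samples were wild type for Mthfd1l, and per the study's methods such control cells had received Cas9 with an empty vector. Cells of both kinds were grown from single colonies, so a sample can be 1 clone. Samples were numbered 1 to 3 in each group, and the labels do not say whether a number stands for a CTL or a DKI line, nor whether the samples were separate cultures, so p-values measure only the spread between these samples. In the study's description, Mthfd1l was depleted in 3 lines. Of these, the MTH-D line HCIC-2, from a DKI mouse, carried only a very small deletion in Mthfd1l. The study describes its later experiments, its m6A sequencing among them, as done with the lines HCIC-1 and HCIC-3. The labels do not say whether sample numbers follow line numbers, so differences over the samples numbered 1 and 3 are given as well. The table holds fractions without read counts, which leaves the depth of each value unknown, and neither the knockout nor the cell type could be checked here from marker genes. All 6 samples carry the same batch number in the labels.

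m6A is placed on nascent mRNA by the METTL3 and METTL14 methyltransferase with S-adenosylmethionine as methyl donor, mostly within the motif DRACH (D is A, G or T, R is A or G, H is A, C or T), and it tends to collect in long exons and near stop codons. Reader proteins bound to it alter mRNA decay and translation. Myc encodes a transcription factor that drives growth and cell cycle entry, Jun encodes a subunit of the AP-1 transcription factor that is induced within minutes of mitogen signals, and Ccnd1 encodes cyclin D1, which activates CDK4 and CDK6 in the G1 phase. Jun is required for normal regeneration of mouse liver, and the mRNAs of Myc and Jun are short lived.

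Myc and Jun carried m6A at many positions and at high levels, whereas Ccnd1 carried little. Averaged over its listed positions and the 6 samples, m6A was 18.3% in Myc, 17.5% in Jun and 4.50% in Ccnd1, against 6.90% over the whole table. Some rows of the Ccnd1 window may belong to a gene on the opposite strand, as described below. The rows of that window averaged 7.73% within 900 nt of its 3′ edge and 1.99% beyond, and its values here and in the next paragraph mix both. Sample means ranged from 16.7% to 19.2% in Myc and from 16.1% to 18.5% in Jun, so these genes overlapped, with Myc above Jun in 5 of 6 samples. Ccnd1 ranged from 4.16% to 4.91% and lay below Jun by 11.2 to 14.3 percentage points in every sample. Of 9310 bins of 5000 nt with at least 20 listed positions, 87.6% had a lower mean than Myc, 86.1% a lower mean than Jun and 40.6% a lower mean than Ccnd1. The median bin was at 6.06%. None of the 3 gene means differed between MTH-D and MTH-WT by more than the standard error (SE) of the difference, as described below for each gene.

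High levels were common in Myc and Jun and rare in Ccnd1. In Myc, 20 of 54 positions averaged at least 10% over the 6 samples, 8 at least 50% and 4 at least 80%. In Jun these counts were 25, 11 and 4 of 76. In Ccnd1 they were 11, 2 and 0 of 110. Over the whole table, 81446 of 567667 positions averaged at least 10%. Positions averaging 80% or more made up 7.41% of Myc and 5.26% of Jun, against 1.72% of the whole table. At the other end, positions averaging under 2% made up 40.7% of Myc, 36.8% of Jun and 59.1% of Ccnd1, against 66.4% of the whole table.

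**Figure D1:**
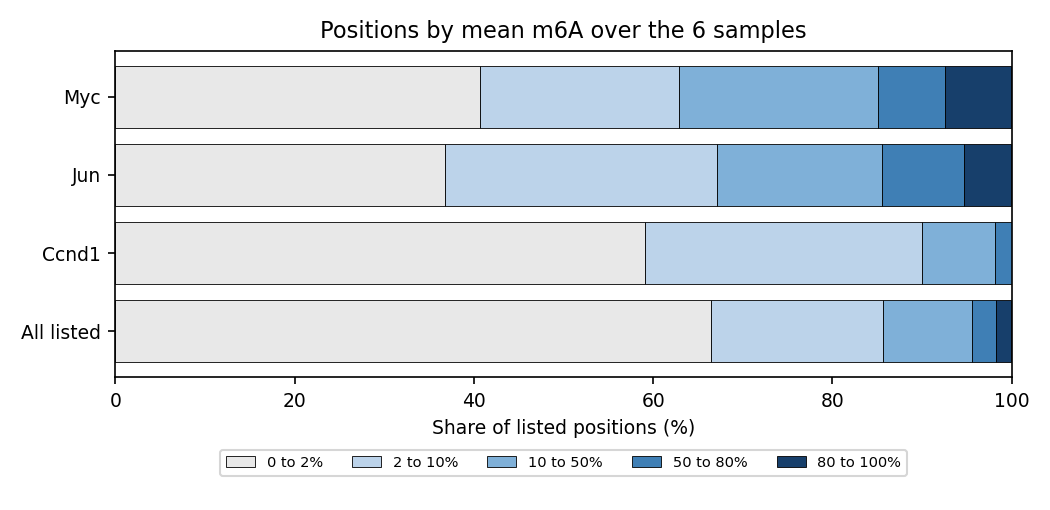
Share of listed positions (x axis, %) in 5 classes of mean m6A over the 6 samples, for Myc (54 positions), Jun (76), Ccnd1 (110) and the whole table (567667). The darkest class, 80% and over, takes 7.41% of Myc, 5.26% of Jun and none of Ccnd1.

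The mRNAs of Myc and Jun held DRACH at a higher density than that of Ccnd1. In the longest coding transcript of GENCODE M21, the DRACH motif occurred 54 times in Myc (2338 nt), 72 times in Jun (3189 nt) and 66 times in Ccnd1 (3740 nt), or 23.1, 22.6 and 17.6 times per 1000 nt. The median over 21405 coding genes with a transcript of at least 500 nt was 20.4. The form GGACT, which is often methylated in mammals, occurred 6 times in Myc, 7 times in Jun and 3 times in Ccnd1, and 89% of the coding genes hold it at least once. In Jun and Ccnd1 the listed rows, 76 and 110, outnumbered the DRACH motifs of the mRNA, while Myc had 54 of each. The motif counts come from transcript sequences of the build GRCm38, and listed positions were not matched to single motifs. Sequences around the sites are not printed, since the genome of the table's build was not used here.

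**Figure D2:**
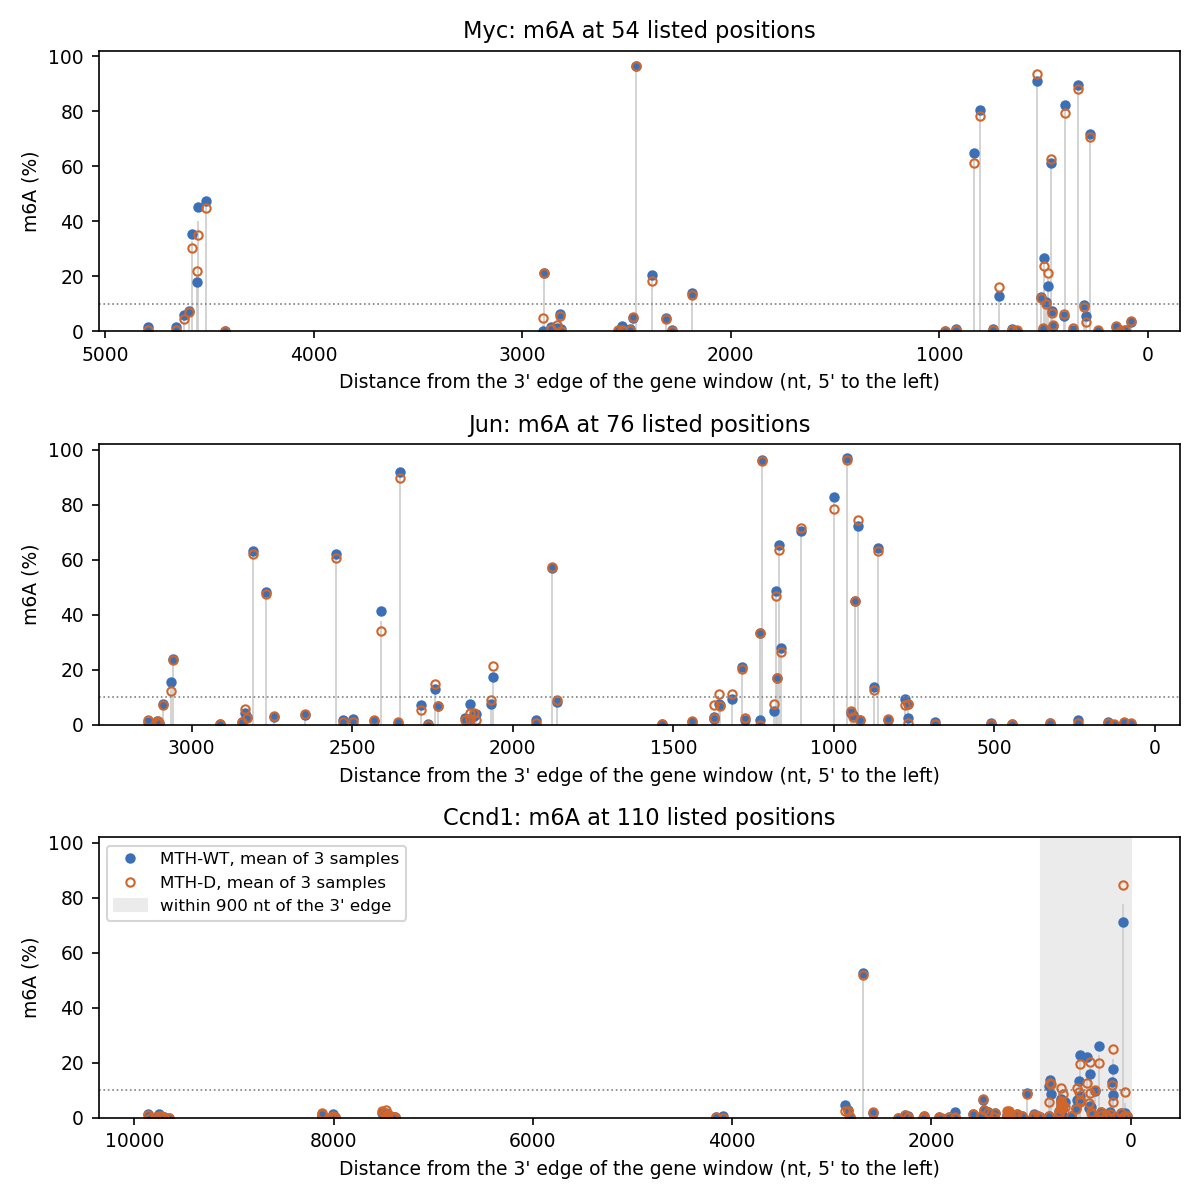
m6A (y axis, %) at each listed position of Myc, Jun and Ccnd1 against its distance from the 3′ edge of the gene window (x axis, nt, 5′ to the left). Filled points are the mean of 3 MTH-WT samples, open points the mean of 3 MTH-D samples, grey lines the mean of all 6, the dotted line 10%, and the shaded band in Ccnd1 the 900 nt nearest the edge. Myc and Jun have positions near 96% with almost the same value in both groups, and Ccnd1 has 1 position above 10% outside the band.

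Myc lies on the plus strand and has 3 exons. Its 54 positions fell into 3 blocks when a gap of over 400 nt, a length chosen after seeing the data, was taken as a break. No other position was listed within 2000 nt on either side of the window, and no annotated gene overlaps Myc in GENCODE M21. The 5′ block held 9 positions over 370 nt, with a mean of 17.0% and a highest level of 46.1%. The middle block held 16 positions over 716 nt and averaged 10.9%, of which a single position exceeded 50%. The 3′ block held 29 positions over 891 nt and averaged 22.7%, and 7 of the 8 Myc positions at 50% or more lay in it, between 278 and 833 nt from the 3′ edge of the window.

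The highest position of Myc, chr15:61859768 in the middle block, was almost fully methylated, at 96.6%, 97.1% and 95.6% in MTH-WT samples 1 to 3 and at 95.2%, 97.4% and 96.4% in MTH-D samples 1 to 3. The others were in the 3′ block. At chr15:61861690, MTH-WT samples had 92.3%, 92.3% and 88.6%, and MTH-D samples had 93.5%, 93.4% and 93.3%, so that every MTH-D value lay above every MTH-WT value, although by only 2.32 points on average. The limma test of this position, fitted over the whole table on the log2 odds of m6A, gave a difference of 0.40 ± 0.27 (SE) with an adjusted p of 0.939.

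Further along the 3′ block, chr15:61861891 had 89.8%, 90.6% and 88.0% in MTH-WT and 86.9%, 90.7% and 86.7% in MTH-D. The groups overlapped there, as they did at the next 3 positions. At chr15:61861825 the values were 82.5%, 82.7% and 81.2% in MTH-WT and 84.5%, 74.6% and 78.7% in MTH-D. For chr15:61861420 they were 80.9%, 80% and 80.7% in MTH-WT and 80.5%, 83.1% and 71.4% in MTH-D. MTH-D sample 3 was the lowest of the 6 at this position. The sixth, chr15:61861945, had 71.2%, 75.4% and 68.4% in MTH-WT and 71.0%, 71.3% and 69.6% in MTH-D. High and low positions lay side by side in this block. Only 5 nt apart, chr15:61861820 averaged 5.88% and chr15:61861825 averaged 80.7%, and 4 nt apart, chr15:61861758 averaged 62.0% and chr15:61861762 averaged 7.10%. These neighbours were chosen after their values were seen.

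The largest difference in Myc between the groups lay in the 5′ block. At chr15:61857665, m6A was 44.9%, 44.8% and 46.2% in MTH-WT samples 1 to 3 and 38.3%, 34.3% and 32.6% in MTH-D samples 1 to 3. All 3 MTH-D values were below all 3 MTH-WT values, with means of 45.3% ± 0.743 and 35.1% ± 2.95 (SD, n = 3 each) and a difference of -10.2 points. On the log2 odds scale the difference was -0.61 ± 0.24 (SE), with an unadjusted p of 0.0452 and an adjusted p of 0.939 in limma with Benjamini-Hochberg adjustment over 567667 positions, so it did not pass the test. The direction was the same in the 3 same-numbered pairs, at -6.60, -10.5 and -13.6 points. A position 26 nt upstream, chr15:61857639, was also lower in all 3 pairs, with differences of -5.96, -4.68 and -4.71 points (adjusted p = 0.939, limma). At chr15:61857660, only 5 nt upstream of the first, the mean was 22.0% in MTH-D and 17.9% in MTH-WT, with pairs of both signs (adjusted p = 0.977, limma). Both neighbours were chosen after their values were seen. The third smallest unadjusted p among Myc positions averaging at least 10% was at chr15:61861744 in the 3′ block, with 17.8%, 14.6% and 16.9% in MTH-WT and 16.9%, 29.9% and 17.1% in MTH-D, where MTH-D sample 2 stood alone above the other 5 (adjusted p = 0.939).

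Over the whole Myc window, mean m6A was 18.9%, 18.2% and 18.4% in MTH-WT samples 1 to 3 and 18.3%, 19.2% and 16.7% in MTH-D samples 1 to 3. MTH-D sample 2 was the highest of all 6 and MTH-D sample 3 the lowest, so the groups overlapped. The means were 18.5% ± 0.372 in MTH-WT and 18.1% ± 1.27 in MTH-D (SD, n = 3 each), a difference of -0.429 ± 0.764 points (SE; p = 0.80 by exact permutation, two-sided, for which the smallest possible p with 3 samples a group is 0.10). Within same-numbered samples the differences were -0.598, 1.04 and -1.73 points. Without MTH-D sample 3 the difference turned to 0.256 points, and over the samples numbered 1 and 3 it was -1.16 points (exact permutation test, p = 0.333, the smallest that 2 samples against 2 allow). By block, the difference was -1.93 ± 1.99 points in the 5′ block, -0.0167 ± 0.615 points in the middle block and -0.192 ± 0.605 points in the 3′ block (SE), each smaller than its error.

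Jun lies on the minus strand and has a single exon, and its 76 positions formed 1 block of 3062 nt with no listed position within 2000 nt outside the window. Levels changed sharply along the transcript. The 13 positions nearest the 3′ edge, up to the first that reached 10% at 862 nt, averaged at most 8.29%, and the 25 positions averaging at least 10% lay between 862 and 3064 nt from that edge. In GENCODE M21 an exon of Junos, an antisense noncoding RNA, overlaps 232 nt of Jun. The table gives no strand, so rows from either RNA cannot be told apart there. The overlap does not include the 3′ end of Jun. Which of the listed positions, those named below among them, lie in it was not determined.

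The 2 highest positions of Jun were close to full methylation. At chr4:94938230, m6A was 96.7%, 97.8% and 96.0% in MTH-WT samples 1 to 3 and 96.5%, 96.4% and 95.9% in MTH-D samples 1 to 3. At chr4:94938497 it was 96.7%, 95.6% and 96.8% in MTH-WT and 96.4%, 95.9% and 94.7% in MTH-D. The groups overlapped at both, and no sample fell below 94.7%. Nearer the 5′ end, chr4:94939625 had 92.7%, 91.7% and 91.5% in MTH-WT and 92.9%, 93.6% and 82.7% in MTH-D. A similar pattern was seen at chr4:94938272, with 83.7%, 82.1% and 82.6% in MTH-WT and 81.0%, 83.4% and 70.8% in MTH-D. At both of these, MTH-D sample 3 stood below the other 5 samples. The other 2 MTH-D values were above all 3 MTH-WT values at chr4:94939625, whereas at chr4:94938272 MTH-D sample 1 was below them and MTH-D sample 2 among them.

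A different order was found at chr4:94938197, with 73.7%, 70.7% and 72.0% in MTH-WT and 74.1%, 75.0% and 74.1% in MTH-D. All 3 MTH-D values were above all 3 MTH-WT values, by 2.27 points on average, and the limma difference was 0.16 ± 0.24 (SE, log2 odds, adjusted p = 0.960). The sixth highest, chr4:94938376, had 75.4%, 68.0% and 67.6% in MTH-WT and 73.2%, 67.9% and 73.7% in MTH-D, and its groups overlapped. Neighbouring positions again differed widely, for example 96.0% at chr4:94938497 against 33.2% at chr4:94938501, and 90.8% at chr4:94939625 against 0.735% at chr4:94939629, pairs that were chosen after their values were seen.

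Among Jun positions averaging at least 10%, the smallest unadjusted p in limma belonged to chr4:94939683, with 40%, 38.0% and 45.4% in MTH-WT and 34.6%, 41.9% and 25.7% in MTH-D. Its difference of -7.04 points came with overlapping groups and pairs of both signs (unadjusted p = 0.244, adjusted p = 0.939). The next, chr4:94939333, went the other way in all 3 pairs, from 21.8%, 14.1% and 15.5% in MTH-WT to 24.5%, 18.3% and 21.1% in MTH-D, a mean difference of 4.16 points with overlapping groups (adjusted p = 0.939, limma). The third, chr4:94940336, had 18.7%, 12.9% and 15.2% in MTH-WT and 16.8%, 13.3% and 6.14% in MTH-D (adjusted p = 0.939).

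Averaged over the Jun window, m6A was 18.5%, 17.0% and 17.5% in MTH-WT samples 1 to 3 and 18.3%, 17.9% and 16.1% in MTH-D samples 1 to 3. The ranges overlapped, and the order of the samples did not follow the groups. The means were 17.7% ± 0.803 in MTH-WT and 17.4% ± 1.176 in MTH-D (SD, n = 3 each), and the difference was -0.253 ± 0.822 points (SE; two-sided exact permutation test, p = 0.80). Same-numbered samples differed by -0.245, 0.905 and -1.42 points. Without MTH-WT sample 1 the difference turned to 0.184 points, and without MTH-D sample 3 to 0.414 points. Over the samples numbered 1 and 3 it was -0.833 points (exact permutation test, p = 0.667).

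Ccnd1 lies on the minus strand and has 5 exons, and its 110 rows fell into 5 blocks. The 4 blocks nearer the 5′ end held 22 positions, and each of these averaged 2.21% or less over the 6 samples. The 88 rows of the last block spanned 2835 nt and ended 34 nt from the 3′ edge. In GENCODE M21, exons of LTO1, a protein-coding gene on the opposite strand, cover 1100 nt of the Ccnd1 exons, including the last 818 nt of its 3′ end. The table also lists 17 positions in the 2000 nt beyond that edge. Because strand is not given, rows near the 3′ end cannot be credited to 1 of these genes. The Ccnd1 values are therefore given on both sides of a line drawn at 900 nt from the edge, which was chosen after seeing the data. The rest of the 1100 nt lies farther from the edge, in part beyond this line. Some rows beyond the line may therefore also come from LTO1.

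Of the 62 positions farther than 900 nt from the 3′ edge, only 1 averaged at least 10%. This was chr7:144486351, with 56.1%, 53.0% and 48.6% in MTH-WT samples 1 to 3 and 52.4%, 56.9% and 46.2% in MTH-D samples 1 to 3. The groups overlapped, with means of 52.6% ± 3.76 and 51.8% ± 5.40 (SD, n = 3 each), and limma gave a difference of -0.04 ± 0.29 (SE, log2 odds, adjusted p of 1.0). The next highest of the 62 averaged 8.86%, and 52 of them averaged under 2%. Their mean was 2.05%, 2.05% and 1.83% in MTH-WT samples and 1.89%, 2.29% and 1.83% in MTH-D samples, a difference of 0.0240 ± 0.164 points (SE; exact permutation test, p = 0.90).

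The 48 rows within 900 nt of the edge averaged 7.73% and included 10 of the 11 positions at 10% or more. Their values varied more between samples. Many of them equal simple ratios of small whole numbers, as values resting on few reads would, but read depth is not given and this was not tested. At chr7:144483742, the highest in the window, m6A was 71.4%, 63.6% and 78.6% in MTH-WT and 68.0%, 100% and 85.7% in MTH-D. Its group means differed by 13.4 points with SDs of 7.47 and 16.0 (n = 3 each), and the groups overlapped (adjusted p = 0.939, limma). Then came chr7:144483983, with 26.7%, 21.1% and 30.4% in MTH-WT and 23.8%, 14.3% and 21.4% in MTH-D, lower in MTH-D in all 3 pairs but with overlapping groups (adjusted p = 0.939). The table lists chr7:144483845 in 2 rows with different values, and the higher row had 16.0%, 22.2% and 15.0% in MTH-WT and 10%, 44.0% and 21.4% in MTH-D. Repeated positions were rare, with 3 in the whole table, of which 2 were in Ccnd1.

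Of the others in this stretch, chr7:144484174 had 23.8%, 18.2% and 26.1% in MTH-WT and 27.6%, 9.09% and 22.2% in MTH-D. The values of chr7:144484072 were 14.8%, 12.5% and 20% in MTH-WT and 9.09%, 18.5% and 33.3% in MTH-D. The groups overlapped at both. The smallest unadjusted p among Ccnd1 positions averaging at least 10% was at chr7:144484108, with 25%, 26.1% and 15.4% in MTH-WT and 13.0%, 10.3% and 14.3% in MTH-D. All 3 MTH-D values were below all 3 MTH-WT values there, with a difference of -9.60 points and, in log2 odds, of -0.92 ± 0.35 (SE, unadjusted p = 0.0357, adjusted p = 0.939, limma).

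Over the whole Ccnd1 window, mean m6A was 4.24%, 4.51% and 4.41% in MTH-WT samples 1 to 3 and 4.16%, 4.77% and 4.91% in MTH-D samples 1 to 3. MTH-D sample 1 was the lowest of the 6 and the other 2 MTH-D samples were the highest. The means were 4.38% ± 0.137 and 4.61% ± 0.398 (SD, n = 3 each), a difference of 0.228 ± 0.243 points (SE; two-sided exact permutation test, p = 0.40). Same-numbered samples differed by -0.0782, 0.258 and 0.503 points. Over the samples numbered 1 and 3 the difference was 0.213 points (exact permutation test, p = 1.0). The sign depended on which rows were counted. The difference was 0.491 points within 900 nt of the 3′ edge, 0.0240 points beyond it and -0.0364 points over positions with no value of 0 or 100%.

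**Figure D3:**
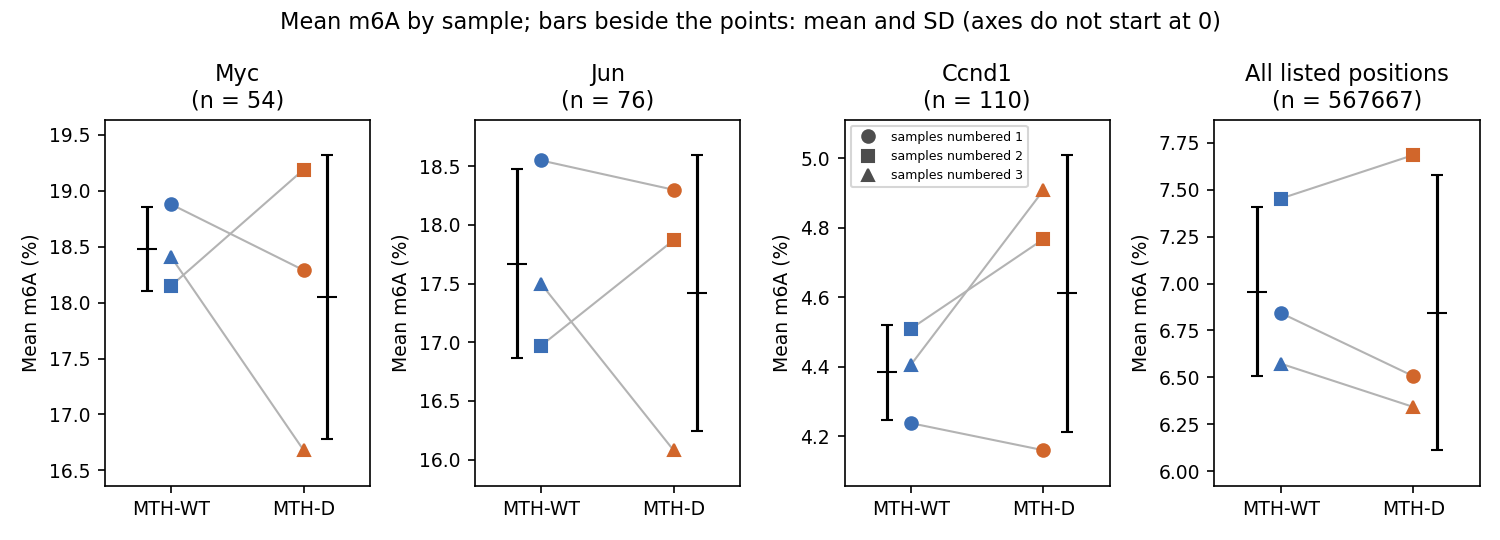
Mean m6A (y axis, %; axes do not start at 0) in each sample for Myc, Jun, Ccnd1 and all listed positions. Symbols mark the sample number, grey lines join same-numbered samples, and bars beside the points are the group mean and SD (n = 3). MTH-D sample 3 is the lowest of the 6 in Myc (16.7%) and Jun (16.1%) and the highest in Ccnd1 (4.91%).

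At positions averaging at least 10%, the table as a whole differed in the same direction between numbered samples as the 3 genes. Over the 81446 positions averaging at least 10%, same-numbered samples differed by -1.46, 0.970 and -1.79 points, and the difference of the group means was -0.761 points (exact permutation test, p = 0.70). At the positions of Myc averaging at least 10% the same differences were -1.002, 1.96 and -3.83 points, at those of Jun -0.610, 1.76 and -3.39 points, and at those of Ccnd1 -0.665, 2.94 and -1.31 points. At these positions the difference was above 0 for the samples numbered 2, in the table and in all 3 genes. It was below 0 for those numbered 1 and 3. Of the 11 such positions in Ccnd1, 10 lay within 900 nt of the 3′ edge. Over all rows of the Ccnd1 window, the samples numbered 3 differed by 0.503 points, against -0.231 points over all rows of the table. At positions averaging at least 10%, MTH-WT sample 2 was the highest of the MTH-WT samples over the table, at 42.4% against 38.5% and 37.6%. In Jun it was the lowest, at 46.6% against 49.8% and 47.1%, and in Myc it was intermediate, at 45.6% against 46.7% and 45.3%.

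Position by position, no member passed the test. Of the 567667 rows, 0 had an adjusted p under 0.05 in limma (0%), and among the members the count was 0 of 54 in Myc, 0 of 76 in Jun and 0 of 110 in Ccnd1. At an unadjusted p under 0.05 there were 2 in Myc, 2 in Jun and 3 in Ccnd1, against a share of 3.22% over the table, so the members' 7 of 240 was near the background. Beside chr15:61857665 and chr7:144484108, these positions averaged 5.44% or less. This count of 7 was 3 without MTH-WT sample 3, 4 without MTH-D sample 3, 11 without MTH-WT sample 1, 12 without MTH-D sample 1 and 3 with the replicate block, where the table's shares were 4.62%, 4.44%, 4.82%, 4.74% and 3.05%. Among positions averaging at least 10%, the count was 1 of 20 in Myc, 0 of 25 in Jun and 1 of 11 in Ccnd1, and 2.35% over the table.

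Counts by direction were small in each gene and are given beside those of the table. All 3 MTH-D values lay below all 3 MTH-WT values at 1 of 20 positions in Myc, 0 of 25 in Jun and 1 of 11 in Ccnd1, and at 3.38% of the table's positions averaging at least 10%. They lay above at 1, 1 and 0 positions, and at 2.07% of the table. A mean at least 5 points lower in MTH-D was seen at 2 positions in Myc, 1 in Jun and 2 in Ccnd1, and at 15.2% of the table. One at least 5 points higher was seen at 0, 0 and 2, and at 9.28% of the table. The mean was lower in MTH-D at 14 of 20 positions in Myc, 18 of 25 in Jun and 7 of 11 in Ccnd1, against 57.9% of the table, with median differences of -0.855, -0.647 and -0.910 points, against -0.687 points over the table.

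Few positions moved the same way in the 3 same-numbered pairs. In Myc, 2 of 20 were lower and 1 was higher in every pair. In Jun, 1 was lower and 4 were higher of 25, and in Ccnd1 2 were lower and 0 higher of 11. Over the table, 16.4% were lower and 9.07% higher in every pair. The 4 Jun positions higher in every pair were chr4:94938197, chr4:94938591, chr4:94939333 and chr4:94939516, by 1.59 to 4.16 points on average.

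**Figure D4:**
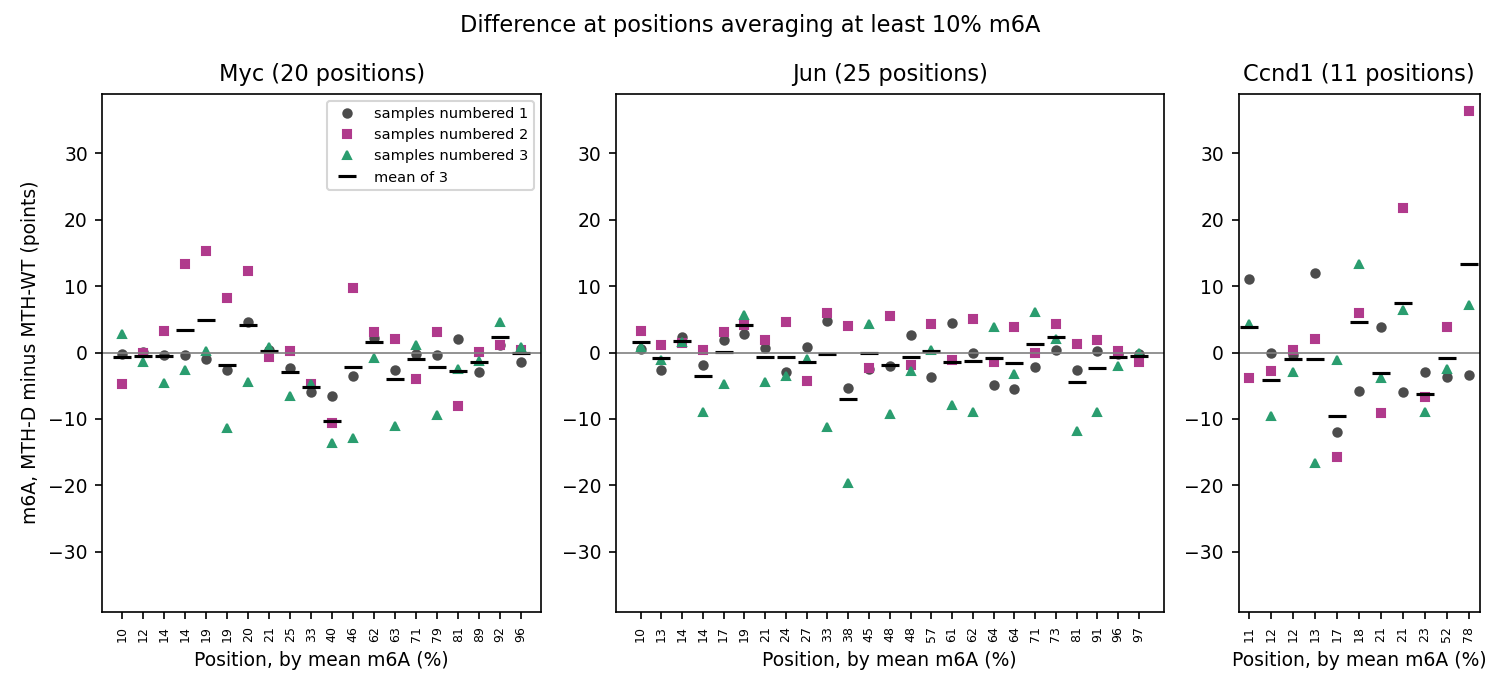
Difference in m6A between same-numbered MTH-D and MTH-WT samples (y axis, percentage points) at the positions averaging at least 10%, ordered along the x axis by their mean m6A (%), for Myc (20 positions), Jun (25) and Ccnd1 (11). Circles, squares and triangles are the samples numbered 1, 2 and 3, and black dashes the mean of 3. Triangles lie below 0 at 14 of 20 positions in Myc and 17 of 25 in Jun, and squares at 7 of 20 and 7 of 25. The position with all 3 symbols farthest below 0 in Myc has a mean difference of -10.2 points.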

How the data were processed

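Direct RNA libraries (1000 ng total RNA, one flow cell each, up to 72 h) were made from 6 samples. Per position, m6A is given in the 1 table the authors deposited as a fraction (0 to 1), beside chromosome and position but without strand, coverage or read counts. The submitters' processing notes name minimap2 2.26, SAMtools and the build GRCm39. The modification caller and the filters are not given in the sources used here. Over the first 59 Mb of chromosome 4, 93.8% of listed positions lay on an exonic A of a DRACH motif in GENCODE M21 (GRCm38) when counted from 0, and 0.87% when counted from 1, so 1 was added to every deposited position. No coordinates were converted between builds.

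Fractions were converted to percent. Gene means per sample were compared by exact permutation (two-sided). For single positions, limma 3.58.1 (R 4.3.3) was run on log2 odds with 1 percentage point added to both shares, over all 567667 rows, with Benjamini-Hochberg adjustment. The fit was also run on simulated data, with changes larger than most differences named here, so that run says nothing about changes of their size. Positions named are, per gene, the 6 with the highest mean and the 3 with the smallest p among those averaging at least 10%. The members and lists were chosen with earlier results of these data known. Same-numbered samples deviated together from their group means (correlations 0.164, 0.223 and 0.133 at positions averaging at least 10%), and same-numbered samples were therefore also compared as pairs, as the study describes its MTH-WT cells as paired controls. Alternatives left out 1 sample at a time or both samples numbered 2, or used other position sets, offsets and scales, the median and the replicate block. Fits over all genes, other genes of the same pathways and the genes most alike in pattern were not analysed here, since they need gene coordinates in GRCm39. The unknown depth means that no interval for single values could be given.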

Additional observations from a re-analysis of the deposited data

How the results depend on the processing

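The gene differences of -0.429 points in Myc, -0.253 points in Jun and 0.228 points in Ccnd1 ranged from -0.998 to 0.256, from -0.694 to 0.414 and from 0.0793 to 0.454 points when each sample was left out in turn. Over the samples numbered 1 and 3 they were -1.16, -0.833 and 0.213 points. The direction also turned in Jun with the median over positions (0.288 points) and in Ccnd1 over positions with no value of 0 or 100% (-0.0364 points); the cause was not tested. With the replicate block the differences were -0.429, -0.253 and 0.228 points by arithmetic, with exact sign-flip p-values of 0.75, 0.75 and 0.50, where 3 pairs cannot go below 0.25, and the block changed no call. No position of the whole table, members included, had an adjusted p under 0.05 in any alternative of the limma fit, 0 in each. Of 9 positions tested by name, the differences kept their sign in 98 of 99 alternatives. The exception was chr15:61861744 in Myc, 0.40 in log2 odds over all samples and -0.0373 over the samples numbered 1 and 3. These 9 positions were picked for their small p-values in the same data that the alternatives reuse. The replicate block and the fit over only the positions with higher mean m6A leave each difference unchanged by arithmetic, so neither could turn a sign. The count of kept signs is therefore no independent test of these differences. Single samples moved some of these differences (log2 odds) by more than 1.5 times. Without MTH-D sample 2, that of chr7:144483742 went from 2.11 to 0.48, that of chr7:144483983 from -0.51 to -0.25 and that of chr15:61861744 to 0.06. Without MTH-D sample 3, that of chr4:94940336 went from -0.48 to -0.05 and that of chr4:94939683 from -0.44 to -0.17. Other samples mattered as well, and some differences grew. Leaving out MTH-D sample 1 took chr7:144483742 to 3.28 and chr4:94940336 to -0.79. Leaving out MTH-WT sample 1 took chr4:94939333 from 0.38 to 0.60, and leaving out MTH-WT sample 3 took chr15:61861690 from 0.40 to 0.21. The adjusted p of the 9 positions lay between 0.317 and 1.0. At 21 of 54 positions in Myc, 19 of 76 in Jun and 46 of 110 in Ccnd1 at least 1 sample had a value of exactly 0 or 100%. The fit over all genes and its alternatives were not run.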

Other observations

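Ccnd1 held 2 runs of 8 consecutive listed positions, chr7:144484359-144484366 with means of 3.57% to 8.66% and chr7:144484899-144484906 with means of 0.678% to 1.71%. No run of that length was listed in Myc or Jun, although Jun held pairs of positions 1 nt apart, for example chr4:94938501 and chr4:94938502. Since the A of a DRACH motif is followed by C, neighbouring positions of 1 strand cannot both be such an A, and how these rows came to be listed was not tested.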
